A study of Arabidopsis thaliana with 4 samples.

Results

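The regions described here are the longest series of consecutively named array probes with high H3K27me3 signal in Arabidopsis thaliana seedlings. Each is a run of at least 10 array probes in consecutive wells that all lay at least 1 unit above the array median in both replicate immunoprecipitations. There were 58 such runs among 929 runs of any length, and they held 850 of the 3524 probes that passed this limit (24.1%). The members were thus selected on the measured values themselves, from both replicates at once, so that their length, height and profile are given as a description and nothing about them was tested. Of all 21740 probes with a value, 16.2% passed the limit in both replicates, and the 850 members were 3.91% of the array.

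H3K27me3, trimethylation of lysine 27 on histone H3, is deposited by Polycomb repressive complex 2 and marks genes held silent in a given tissue. In Arabidopsis the mark typically covers the body of single genes, is read by the chromodomain protein LHP1, and in seedlings sits on many developmental regulators, such as floral homeotic genes of the MADS-box family. A probe's name gives its plate and well, and neither a gene nor a genome position, so no sequence or gene is printed. The order used is that of the probe names, which is not known to be the order in the genome. Probes in neighbouring wells may therefore not be neighbours on a chromosome, and every length, gap, end and dip below is a distance in wells and not in bases.

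The material was whole seedlings of ecotype Col-0, aged 10 days, grown in liquid medium without treatment. DNA precipitated with a commercial antibody against H3K27me3 was compared with its own input on 2-colour arrays. The 2 immunoprecipitations, I and II, were each hybridised on 2 arrays with exchanged dyes, and as both arrays of an exchange hold the same deposited values, n = 2 throughout. All 4 arrays form 1 group, and since the labels name no separate cultures for I and II, their spread can be technical. In whole seedlings, a mark in fewer cells and less mark per cell cannot be told apart.

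Values are units of the deposited score above each replicate's median, which was -0.942 in replicate I and -1.203 in II. The labels name neither a log base nor a direction for the score, which behaves like a log ratio. Immunoprecipitate over input is the likely direction, because 3524 probes passed the limit on the high side in both replicates and only 10 passed the same distance on the low side. With the sign turned, no run of 10 probes exists.

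The long runs were unevenly placed over the probe series. The TB series carried 32 of the 58 runs with 509 members, which is 5.30% of its 9599 probes. The TA series carried 22 runs with 296 members, or 3.17% of 9329 probes. The short PD series held 3 runs with 32 members among 316 probes (10.1%), the TC series 1 run among 2400 probes, and the TD series none among 96. Members lay on 53 of 231 plates. Plate TA 97 held the most, 50 of 96 probes, followed by TB 21 with 48, TB 32 with 46, TB 25 with 43 and TA 84 with 38.

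Within the TA series, 19 of the 22 runs lay on plates 61 to 99, where members were 6.89% of 3743 probes. The earlier TA plates carried 2 runs at the very start (TA01F05 to TA01G02 and TA01H04 to TA02A02) and 1 run on plate TA 36. That run, TA36D11 to TA36F03, stood alone, with 3308 wells before it and 2381 wells after it without another long run. It was nevertheless tall and even: its 17 probes averaged 3.25 units in replicate I and 2.49 in II, and its lowest member, the last well, read 2.23 and 1.69. In the TB series, plates 21 to 41 carried 13 runs and 270 members, 13.4% of 2016 probes. These plate limits were set after the values were seen.

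**Figure D1:**
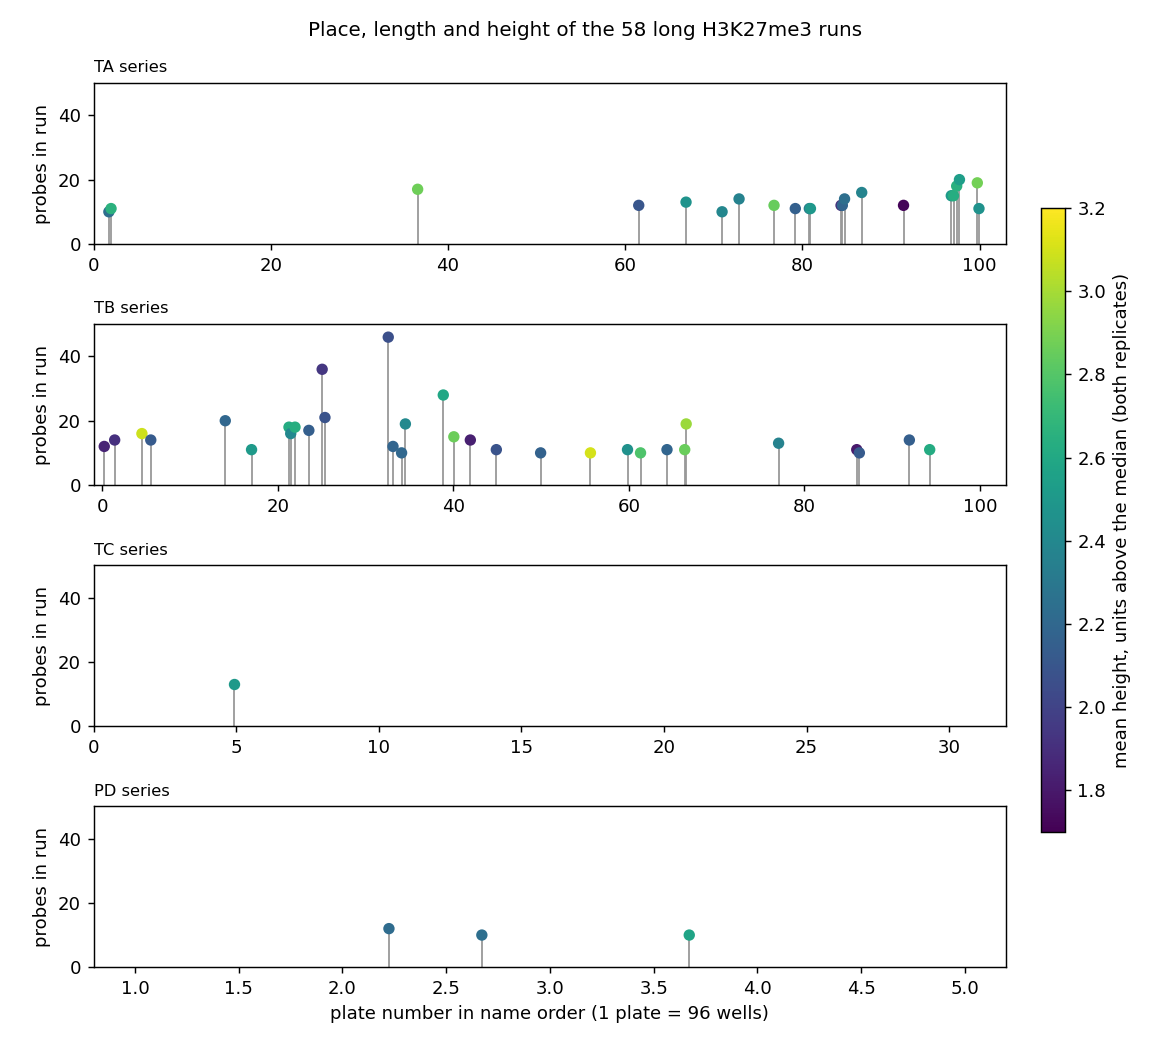
Each point is 1 of the 58 long runs, placed by plate number in name order (x axis) and by its number of probes (y axis), with 1 panel per probe series that has a run; colour gives the mean height of both replicates in units above the median. The topmost point is the run of 46 probes on plate TB 32, plates TA 37 to 60 carry none, and the TC series has a single run of 13 probes.

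Most runs were only a little longer than the limit. The median length was 12.5 probes, 21 runs had 10 or 11, 17 had 12 to 14, 14 had 15 to 19, and 6 had 20 or more. Just outside the limit lay 20 runs of 9 probes, with mean heights of 2.54 (I) and 1.88 units (II), against 2.75 and 2.10 for the 9 runs of exactly 10. Their median heights did not differ in this way, at 2.25 units for 9 probes and 2.24 for 10 (mean of both replicates). The 6 runs of 20 or more together held 171 members, and the 3 longest 110. The longest was TB32C09 to TB32G06 with 46 probes, then TB24G11 to TB25B10 with 36, TB38F08 to TB38H11 with 28 and TB25C01 to TB25D09 with 21. Both TB13H03 to TB14A10 and TA97E12 to TA97G07 had 20.

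Members averaged 2.69 ± 0.62 units (SD over 850 probes) in replicate I and 2.05 ± 0.57 in II. They ranged from 1.02 to 4.37 units in replicate I and from 1.004 to 3.91 in II. Both replicates exceeded 2 units in 440 members and 3 units in 48. Run means lay between 1.84 and 3.44 units in replicate I (median 2.69) and between 1.54 and 2.77 in replicate II (median 2.04). Replicate I was the higher in all 58 runs and in 834 of the 850 members.

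The offset between replicates differed from run to run. It was 0.64 units on average, and the ratio of replicate II to replicate I ranged from 0.665 to 0.881 with a median of 0.766. The offset was widest in TA97E12 to TA97G07 (2.999 units in I, 2.07 in II), TB34D06 to TB34E12 (2.87 and 1.94) and TB34A05 to TB34B02 (2.64 and 1.76). It was narrowest in TA91C10 to TA91D09, at 1.84 and 1.60 units. The order of the run means was nonetheless similar in the 2 replicates, with r = 0.926 and Spearman's rho = 0.918 over the 58 runs, which share their arrays and were chosen in both.

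The tallest run was the short one TB55E07 to TB55F04. Its 10 probes averaged 3.11 ± 0.47 units (SD, n = 2 replicates), and all but its first and last well lay at 3.33 units or more in replicate I and 2.72 or more in replicate II. TB04D05 to TB04E08, with 16 probes, followed at 3.09 ± 0.47 units (SD, n = 2). It contains the highest member in each replicate: TB04E01 at 4.37 units in I and TB04E05 at 3.91 in II. The next in height were TB66D06 to TB66E12 (3.40 units in I, 2.55 in II), TA99F02 to TA99G08 (3.26 and 2.503) and the isolated run on plate TA 36.

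The lowest of the 58 was TA91C10 to TA91D09. Its mean was 1.72 ± 0.17 units (SD, n = 2), and its 12 wells stayed between 1.204 and 2.31 units in I and between 1.12 and 2.01 in II. TB85H04 to TB86A02 read 1.93 units in I and 1.67 in II, and TB41G11 to TB41H12 read 2.07 and 1.59. TB00B03 to TB00C02 (2.16 and 1.54) and TA84C05 to TA84D04 (2.19 and 1.59) completed the lowest 5. Between the lowest and the highest run the mean of both replicates differed by 1.38 units.

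**Figure D2:**
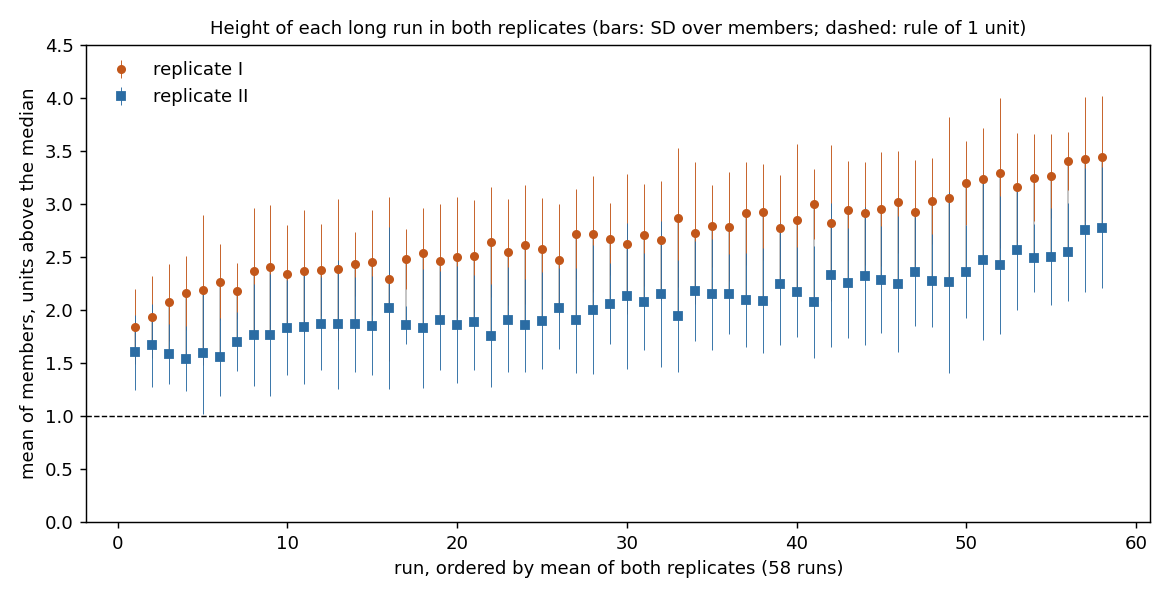
Mean of the members of each of the 58 long runs in replicate I (circles) and replicate II (squares), in units above the median, with runs ordered by the mean of both replicates; bars are the SD over the members of a run and the dashed line is the limit of 1 unit. Replicate I lies above replicate II in all 58 runs, and the bars of most runs overlap those of their neighbours in the order.

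Length and height were not related within the long runs (r = -0.04, Spearman's rho = 0.08, over 58 runs of the same arrays). The 2 longest runs were low for their class, at 2.07 units (46 probes) and 1.94 units (36 probes) against a median of 2.37 units over the 58. Across all runs, by contrast, the mean height in replicate I rose with the length class, from 1.84 ± 0.46 units for single upper probes (SD over 264) and 2.20 ± 0.44 for 416 runs of 2 to 4, to 2.49 ± 0.39 for 191 runs of 5 to 9 and 2.70 ± 0.38 for the long runs. That gradient follows in part from the construction of runs and is not a result. The long runs held 112 of the 217 probes in the top 1% of the array (51.6%), and runs of 5 to 9 held a further 84. Members were 24.1% of the upper probes and 3.91% of the array. As they were chosen for high values, this count is not a result either.

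At a stricter limit of 1.5 units, 21 runs of 10 or more probes remained, each inside a different one of the 58, with 271 of the 850 members. Only 6 of the 21 kept both ends of the main run, and the others were a part of it. The longest of these was the entire run TA99F02 to TA99G08 (19 probes), followed by the entire run on plate TA 36 and TA97C07 to TA97D11 with 17 each. Neither of the 2 longest runs kept a stretch of 10 probes at that limit, whereas TB38F08 to TB38H11 kept 16 (TB38G07 to TB38H10). With the deposited score used uncentred and the limit of 1 unit kept, a single run was left, 13 probes (TB04D07 to TB04E07) inside the second tallest.

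The signal stepped down at the ends of a run. Averaged over 116 ends, the outermost member read 2.28 ± 0.59 units in replicate I (SD over ends) and 1.66 ± 0.46 in replicate II, and the well next to it outside the run read 0.99 ± 0.58 and 0.55 ± 0.38. The drop at the end was thus 1.29 units in I and 1.11 in II. At the second member the means were 2.69 and 2.07 units, and over the next 3 members they stayed between 2.73 and 2.81 in replicate I and between 2.13 and 2.15 in replicate II. Part of the low outermost value is set by the rule, since a run ends where a probe falls under the limit.

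Outside the runs the mean signal stayed above the array median, to which a mean over wells need not fall. For reference, the longest gap between long runs, of 3308 wells, averaged 0.34 units in I and 0.19 in II. The second longest, of 2381 wells, averaged -0.05 and -0.17. At 2 to 6 wells from the end, the mean lay between 0.97 and 1.09 units in replicate I and between 0.60 and 0.81 in replicate II, with SDs of 0.98 to 1.29 and 0.71 to 1.04 units. Between 22.4% and 35.7% of these wells were upper probes again, against 16.2% of the array. Where 2 long runs lay close together (6 gaps of at most 3 wells), these wells include members of the neighbouring long run. The values were not computed without them. Over the 116 ends, the well directly outside missed the limit in replicate II alone at 60, in replicate I alone at 8 and in both at 48. At 5 ends it lay below the median in both. TA80G09 and TB66D05 each lie between 2 runs and are counted at 2 ends. In their lower replicate, 18 of the 850 members exceeded the limit by less than 0.1 units and 169 (19.9%) by less than 0.5 units. At 16 of the 116 ends, the adjoining well missed the limit by no more than 0.1 units in its lower replicate.

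**Figure D3:**
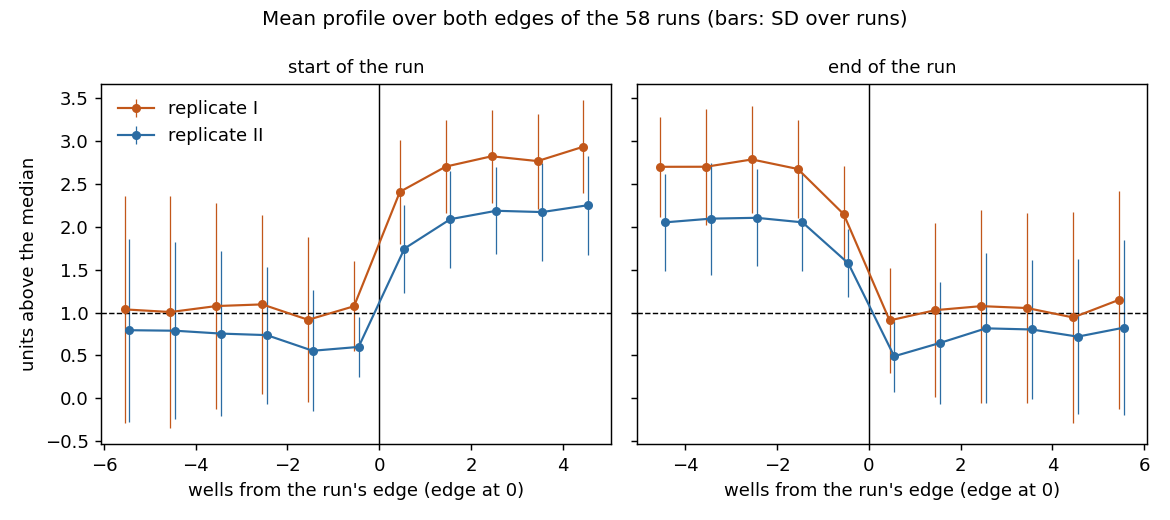
Mean value by distance in wells from the edge of a run, for the start (left) and the end (right) in name order, in units above the median; points are means over 58 runs (57 for 3 to 6 wells beyond the end), bars are the SD over runs, and the dashed line is the limit of 1 unit. The mean rises from 1.07 units in the last well outside to 2.41 in the first member in replicate I, and from 0.60 to 1.75 in replicate II. Wells outside a run include members of a neighbouring long run where the gap was at most 3 wells.

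The ends were sharpest in a handful of runs. The first member of TB61C03 to TB61C12 stood 2.39 units above the well before it in replicate I and 2.49 in II. PD02E12 to PD02F09 was sharp on both sides, with steps of 2.91 and 2.17 units at its start and 3.48 and 2.04 at its end. Its wells outside read -0.48 and -0.08 units before the run and -0.84 and 0.19 after it, in replicates I and II. For 9 runs, the 46-probe run among them, the same first and last wells were found in replicate I alone, in replicate II alone and in both together.

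The interior of a typical run was raised but uneven. Members from the fourth inward of either end exceeded the mean of the outermost members by 0.51 ± 0.57 units (SD over 58 runs) in replicate I and 0.47 ± 0.54 in II, and did so in 47 and 48 runs. The highest member was an end well in 3 runs, and the lowest was an end well in 35. The arch was steepest in TA01H04 to TA02A02, where the interior stood 1.74 units above the ends in I and 1.91 in II. It was inverted in TB76H12 to TB77A12 (-0.60 and -0.42 units) and TB64C04 to TB64D02 (-0.59 and -0.48), whose ends were higher than their middle.

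The median SD of members within a run was 0.48 units. These internal differences recurred in both replicates: the correlation of the 2 replicates along a run had a median of 0.877 and ranged from 0.694 (TB49H02 to TB49H11) to 0.972 (TB21B05 to TB21C10). After subtraction of each run's mean, r was 0.866 over the 850 members. The arrays carry the same probes, and whether a probe's own bias repeats on them was not tested. The largest internal range was in PD03E12 to PD03F09, which rose from 1.58 and 1.13 units in its first well to 4.10 and 3.69 at PD03F04. TB49H02 to TB49H11 was the most even, with a range of 0.75 units in the mean of both replicates.

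Dips inside runs were common. A dip was a well at least 0.5 units, in both replicates, below the highest member on each side of it. Each run was split at its deepest such well, and the parts were then searched in the same way. Depths of later dips therefore refer to the highest members within a part and not within the whole run. There were 67 dips in 45 runs: 32 runs had 1, 10 had 2 and 3 had at least 3, while 13 runs had none. The median depth was 0.69 units, and 14 dips reached 1 unit. Dip probes read 2.16 ± 0.44 units in replicate I (SD over 67) and 1.497 ± 0.350 in replicate II, so they stayed well over the array median, as membership requires. In 12 dips a single well lay at least 0.5 units under both its neighbours in both replicates. The remaining 55 did not meet that condition on both sides, and some of them were steep on one side, such as TB25D03 in TB25C01 to TB25D09, which read 1.96 and 1.07 units after a well at 3.41 and 2.82. Dips numbered 1 per 14.2 members in runs of 10 to 14 and 1 per 11.4 members in runs of 15 or more. This rate depends in part on length by construction. An end well cannot be a dip, and a longer run offers more members on each side to be compared with.

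The deepest dip lay at TA76G07 in the run TA76F11 to TA76G10. That run climbed to 3.75 and 3.31 units at its sixth well, fell to 2.25 and 1.25 at the ninth and returned to 3.97 and 3.40 at the eleventh, in replicates I and II. In TB59G04 to TB59H02, TB59G11 read 1.43 and 1.27 units and the very next well 3.49 and 2.54. The 46-probe run dipped to 1.52 and 1.03 units at TB32G02, TA96H10 to TA97A12 to 1.98 and 1.64 at TA97A05, and TA97E12 to TA97G07 to 2.09 and 1.41 at TA97F12. TB32G02 was close to ending its run in replicate II.

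The 46-probe run consisted of successive mounds rather than a plateau. Cut into 3 equal parts, it averaged 2.41 units in I and 1.81 in II at the start, 2.67 and 1.87 in the middle, and 2.03 and 1.62 at the end. By the mean of both replicates its highest member was TB32D11 (3.22 and 2.81 units); in replicate I alone it was TB32E09 at 3.30 and in II alone TB32D12 at 2.85. Dips lay at 6 probes, TB32D04, TB32D08, TB32E06, TB32E11, TB32F03 and TB32G02. The widest and lowest trough is not among them. The run was split at TB32G02, its deepest dip. In the part before that well, no member after the trough stood 0.5 units above its minimum in replicate II. The minimum of the trough fell at TB32F10 in replicate I (1.249 units) and one well earlier, at TB32F09, in II (1.11). From TB32F07 to TB32F11 this trough stayed at or under 1.77 units in I and 1.47 in II, and TB32F09 (1.27 and 1.11 units) was the lowest member of the run. Beyond its end lay a low stretch: the 23 wells up to the next long run, TB33A06 to TB33B05, averaged 0.04 units in I and 0.14 in II and held no upper probe. TB38F08 to TB38H11 was higher in its later wells, from 2.71 units in the first of 3 parts to 3.13 in the last in I and from 2.05 to 2.46 in II. It had 1 dip, at TB38G06, and its highest member was TB38H05 at 4.13 and 3.41 units. From there it fell to 1.82 and 1.12 units at TB38H11, its last well, which lay 0.98 and 1.32 units below its first.

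The 36-probe run TB24G11 to TB25B10 had a regular saw-tooth profile, a feature singled out after its values were seen. It had 11 local maxima in replicate I and 11 in II, and they were the same 11 probes. Successive maxima were 2 to 4 wells apart (mean 3.30 ± 0.67, SD). They reached nearly equal heights, 2.46 ± 0.16 units in I and 2.02 ± 0.14 in II, and the 7 minima that both replicates shared fell to 1.87 ± 0.10 and 1.39 ± 0.11. The 3 parts of the run averaged 2.19, 2.18 and 2.16 units in I and 1.68, 1.69 and 1.73 in II, so that the pattern ran level from end to end. A mean spacing of about this size is not particular to the run: over the other 11 runs of at least 18 probes it was 2.86 to 4.67 wells in I and 2.5 to 5.5 in II. The SD of the spacing was 0.957 to 2.5 wells in I and 0.548 to 3.54 in II in those runs, and in TB66D06 to TB66E12 the mean was 3.5 wells in both replicates.

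The same wells can be described by setting one replicate's profile against the other's shifted along the run, which restates the spacing of the maxima and adds no independent evidence of it. In the 36-probe run the correlation was -0.21 at a shift of 1 well and -0.49 at 2, rose to 0.41 at 3 and 0.27 at 4, fell to -0.52 at 5 and returned to 0.38 at 7 and 0.33 at 10. None of the other 11 runs of at least 18 probes was negative at a shift of 1 well; they lay between 0.07 and 0.65 there. The run next to it, TB25C01 to TB25D09, was 0.17 at 1 well and 0.04 at 3, and the 46-probe run was 0.45 at 1 well and -0.02 at 3. These are correlations over the wells of single runs, and no test was made.

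**Figure D4:**
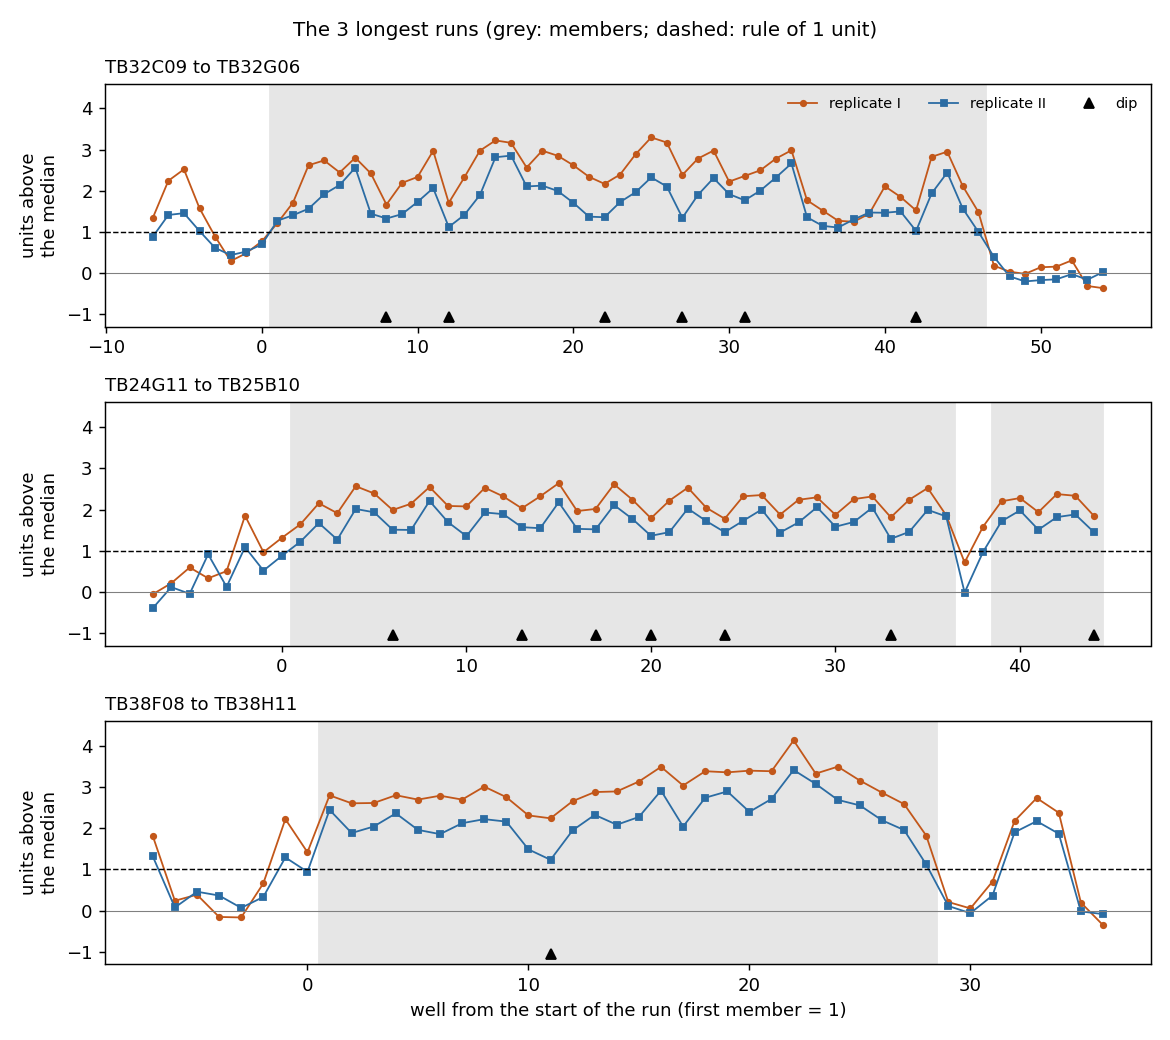
Values of replicate I (circles) and replicate II (squares) along the 3 longest runs and 8 wells on either side, in units above the median; grey marks members of long runs, triangles mark dips and the dashed line is the limit of 1 unit. The top run shows mounds separated by 6 dips, the middle run an even saw-tooth whose maxima average 2.46 units and shared minima 1.87 in replicate I, and the bottom run a rise to 4.13 units in replicate I and a fall to 1.82 in its last well.

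Long runs often came in groups. Of the 54 gaps between successive long runs of a series, the median was 171.5 wells, but 6 gaps were at most 3 wells, 13 at most 24 and 20 at most 96, while 9 exceeded 500 wells. Joined across gaps of up to 24 wells (2 plate rows), 23 of the 58 runs fell into 10 groups and 35 stood alone. Up to 12 wells, 17 runs formed 8 groups.

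The 6 shortest gaps split pairs of runs that otherwise form blocks of 23 to 59 wells. TB66D05, at 1.04 and 0.49 units, was the only well between TB66C06 to TB66D04 and TB66D06 to TB66E12, which make a block of 31 wells averaging 3.29 units in I and 2.44 in II. TA80G09 divided plate TA 80's pair with 0.42 units in replicate I but 1.10 in replicate II, so that it missed the limit in replicate I alone. The 2 wells between the 36-probe run and TB25C01 read 0.72 and -0.01 units, then 1.58 and 0.97; the joined block spans 59 wells, of which 57 were upper. On plate TA 84 the wells between the first and second run included TA84D05 at -0.32 and -0.82 units, below the median in both replicates. The pair on plate TB 21 was parted by 2 wells just under the limit in replicate II, at 0.95 and 0.89 units, and 1.95 and 1.32 in I.

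The group with the most runs spanned plates TA 96 and 97. From TA96F10 to TA97G07, 4 long runs of 15, 15, 18 and 20 probes followed each other, and 96 of the 106 wells were upper (90.6%), with means of 2.73 units in I and 1.96 in II over the whole stretch. The 3 gaps in it differed. The wells between TA97A12 and TA97C07 averaged 2.60 and 1.94 units with 15 of 18 upper, and those between TA97D12 and TA97E12 averaged 2.51 and 1.77 with 9 of 11 upper. Those between TA96G12 and TA96H10 averaged 1.26 and 0.69 with 4 of 9 upper. The 4 runs averaged 2.92, 3.01, 3.03 and 2.999 units in replicate I, and 2.09, 2.24, 2.28 and 2.07 in replicate II.

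**Figure D5:**
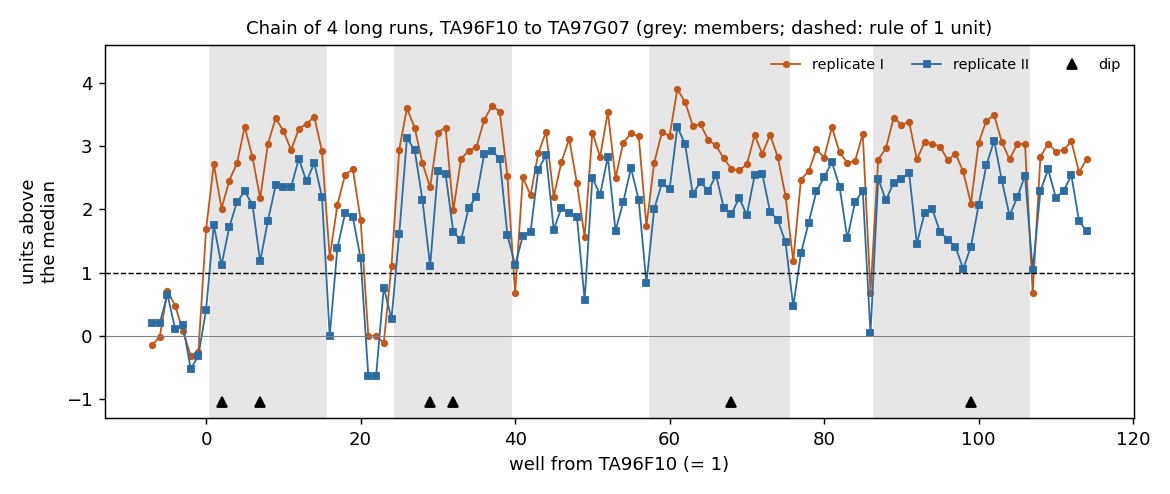
Values of replicate I (circles) and replicate II (squares) from 8 wells before TA96F10 to 8 wells after TA97G07, in units above the median; grey marks the 4 long runs, triangles mark dips and the dashed line is the limit of 1 unit. Most wells between the last 3 runs are also above the limit, with 15 of 18 and 9 of 11 upper.

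Other close pairs were parted by low stretches. On plate TA 01 the 13 wells between the first 2 runs of the series averaged 0.38 units in I and -0.03 in II and held no upper probe. On plate TB 21, the 30 wells before TB21G11 averaged 0.16 and 0.02 units with 2 upper, although 16 and 18 upper probes stood on either side. Between TB85H04 to TB86A02 and TB86B09 to TB86C06, by contrast, the 18 wells averaged 1.86 and 1.34 units with 9 upper.

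Because the rule used both replicates, runs were also built in each replicate alone and read in the other, which had no part in choosing them. In replicate I alone, where 23.8% of all probes reached 1 unit, there were 120 runs of 10 or more with 1848 probes. Of these probes 82.3% reached 1 unit in replicate II, against 17.1% of the array, and none lay below that replicate's median. In shorter runs of replicate I the share in replicate II was 74.0% for 5 to 9 probes, 52.0% for 2 to 4 and 25.7% for single probes. In replicate II alone there were 58 runs of 10 or more with 891 probes, 98.99% of which reached 1 unit in replicate I. The main runs lie inside long runs of each replicate by construction. Replicate II set most of the limits: 50 of its 58 runs had the same ends as the main runs, against 15 of the 120 in replicate I.

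The excess of the interior over the ends also appeared in the replicate that had not defined the run. The replicates are correlated along a run, so low ends set by the rule in one can carry over to the other. How much of the excess is of this kind was not tested. For runs built in I, the interior stood 0.70 ± 0.56 units (SD over 120 runs) above the ends when read in II, in 108 runs. For runs built in II it stood 0.55 ± 0.60 units above the ends in I, in 47 of 58. Of 175 dips found in I alone, 93.1% were lower than their shoulders in II and 72.0% by at least 0.5 units. Of 86 dips found in II alone, 98.8% were lower than their shoulders in I and 76.7% by at least 0.5 units. An interior well tends to lie below the highest member on each side whether or not it is a dip. The share for other interior members was not computed, so these percentages have no baseline and are a description. The median depth shrank from 0.84 to 0.76 units in the first case and from 0.80 to 0.66 in the second.

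Probes of long and of shorter runs were also compared at similar height in the defining replicate. Among probes between 1.5 and 2 units in replicate I, the mean in replicate II was 1.13 ± 0.30 units (SD over 343 probes) in long runs, 1.12 ± 0.30 in runs of 5 to 9 (397 probes), 1.08 ± 0.31 in runs of 2 to 4 (376) and 1.06 ± 0.33 for single probes (61). Between 2 and 2.5 units the means were 1.55, 1.54, 1.52 and 1.45. From 3 units up they were 2.62 in long runs and 2.55 in runs of 5 to 9. In the other direction single probes stood apart: between 1 and 1.5 units in replicate II, 324 single probes averaged 1.27 ± 0.68 units in replicate I, while 182 probes of long runs averaged 1.89 ± 0.47. Probes of runs of 2 to 4 (1.78 ± 0.45, 601 probes) and of 5 to 9 (1.87 ± 0.44, 419) lay near the long runs. Within this bin the single probes were also somewhat lower in replicate II, at 1.16 units on average against 1.26 in long runs.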

How the data were processed

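The authors deposited 1 score per probe and array; per the labels, immunoprecipitate and input were labelled directly after amplification. No label or header states its normalization, log base or direction, and single intensities were not used here, so precision is limited by the number of arrays. Both arrays of a dye exchange held identical scores (largest difference 0) and were averaged to 1 replicate, which was centred on its median over 21740 plate and well probes; 39 control spots and 21 probes without a value were left out.

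Probes were ordered within a series by plate, row and well, 96 wells to a plate. A well without a value ends a run. The members and the named features were chosen with earlier results of these data known. Named runs are the 10 longest (12 with ties at 18 probes), the 5 highest, the 5 lowest, those with the 5 deepest dips and the 3 with the widest replicate offset; runs named beyond these, as extremes of another measure or as neighbours, were chosen after their values were seen. No probe is paired with a gene, so planned gene lists were not applied. The run and dip steps were tested on simulated data. Alternatives changed the centring, scaling, limit, run length, bridging, dip depth, series and replicates used. Software was matplotlib 3.10.9, scipy 1.17.1, pandas 2.3.3, numpy 2.4.6 and Python 3.11.15.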

Additional observations from a re-analysis of the deposited data

How the results depend on the processing

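The median height of the runs moved by less than the SD between the 2 replicate medians (0.46 units) in every alternative that gave runs (2.01 to 2.70 units, against 2.37). That SD is set by the offset of replicate I over II, present in all 58 runs, so it is a wide margin. The other results depend on the limits. The 58 runs with 850 members became 37 with at least 12 probes and 112 with at least 8 (1302 members), 131 at a limit of 0.5 units (2048 members), 21 at 1.5 units (271), 91 with the limit on the replicate mean (1371), 1 without centring (13 members) and 0 with the sign turned (0 members), the last chosen after seeing the data. With 1 low well bridged there were 1365 members. With 1 replicate left out there were 58 to 120 runs and 891 to 1848 members; the larger numbers are those without replicate II. The 67 dips became 102 at a depth of 0.25 units, 14 at 1 unit, 124 with 1 well bridged, 149 and 17 at limits of 0.5 and 1.5 units, 101 with the limit on the mean, 1 without centring, and 86 to 175 with 1 replicate left out. The median gap of 171.5 wells became 91 with at least 8 probes, 60 and 550 at limits of 0.5 and 1.5 units, 112 with the limit on the mean, and 84.5 to 165.5 with 1 replicate left out; a single run without centring gives no gap. The median excess of the interior over the ends (0.47 units, mean of both replicates) was 0.43 with 1 well bridged, 0.60 with mode centring, 0.61 with equal spread, 0.27 without centring, 0.55 with quantile normalization, 0.82 and 0.55 at limits of 0.5 and 1.5 units, 0.62 with the limit on the mean, and 0.45 to 0.76 with 1 replicate left out. A lower limit or a shorter minimum gives more members by construction; why the rest moved was not tested. Skipping wells without a value changed none of the results. All 850 members stayed in long runs under mode centring, but this gave 77 runs, and 29 of the 58 kept both ends. Quantile normalization gave 73 runs, equal spread 66 and 1 bridged well 84. No paired analysis was possible because all arrays form 1 group. Without single intensities, dim probes cannot be set apart.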

Other observations

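Runs that cross from one plate to the next were examined for a step at the boundary. In the 10 such runs the absolute difference between the wells on either side of the boundary was 0.64 ± 0.57 units (SD) in I and 0.51 ± 0.38 in II. Between neighbouring members in the same plate row it was 0.40 ± 0.33 and 0.42 ± 0.34 (728 pairs), and between rows of a plate 0.41 ± 0.39 and 0.44 ± 0.34 (54 pairs). No test was made.

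The runs PD02E12 to PD02F09 and PD03E12 to PD03F09 occupy the same 10 wells on plates 2 and 3 of the PD series. Their profiles differed, with r = 0.14 in I and -0.01 in II over the 10 wells.

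The first and last members were compared in name order. The first member exceeded the last by 0.26 ± 0.63 units (SD over 58 runs) in I and 0.17 ± 0.51 in II. It was the higher in both replicates in 29 runs, the lower in both in 19, and differed in sign between replicates in 10. The SD describes the spread over runs and not how certain the mean difference is, and no test was made. In the 120 runs built in replicate I alone and read in II, the first exceeded the last by 0.071 units on average, in 63 runs. In the 58 runs built in II alone and read in I, it did so by 0.229 units on average, in 33 runs.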
